A study of Felis catus with 6 samples.

Results

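Transcripts of 6 genes of epithelial junctions, the cell cortex and cell polarity were examined in feline chronic gingivostomatitis (FCGS), an immune-mediated inflammation of the oral mucosa of cats. The genes were EZR, CTNND1, TJP1, NF2, DLG3 and YWHAQ, 6 of 1929 Ensembl identifiers that could be given a symbol out of 21529 measured. A symbol came from the study's supplementary list of genes at least 2-fold different between the tissues, by matching each row's tissue values, raised to 1 where lower, to the FPKM values of exactly 1 identifier. All 6 genes therefore entered with a lower mean in lesions of these same libraries, so their direction and their minimum size of change were given by the naming and are described here, not discovered.

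RNA came from full-thickness biopsies of 3 cats with FCGS, each cat giving 1 biopsy of inflamed mucosa and 1 of adjacent mucosa that looked healthy. The healthy tissue thus came from diseased animals, and none of the 6 libraries came from a cat without FCGS. In the labels the animals are called Bart, Jerome and Sadie, with no genotype, treatment or age given. According to the study's methods and clinical description, the cats enrolled were edentulous, tested negative for FIV and FeLV, received buprenorphine for pain, and were under no immunosuppressive or antibiotic therapy. The labels call the tissue gingival, whereas the design text places the biopsies lateral to the palatoglossal folds. Libraries were strand-specific and made from polyadenylated RNA. The authors deposited FPKM, a level divided by transcript length and library size, which allows levels of different genes to be set side by side. FPKM summed to between 1382120 and 1903770 per library. The number of reads is unknown from the files, so no counting error can be given. Nothing beyond the animal separates the replicates, and p-values measure the spread between 3 biopsies a tissue.

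Stratified epithelium holds together through junctions that are tied to actin beneath the membrane. Tight junctions seal the space between cells and are organised by the zonula occludens scaffolds, of which TJP1 encodes ZO-1. Adherens junctions join cells through cadherins, which are kept at the surface by p120-catenin, the product of CTNND1. EZR encodes ezrin and NF2 encodes merlin, related proteins that link membrane proteins to cortical actin, merlin being also a tumor suppressor that acts on Hippo signaling. DLG3 encodes a scaffold of the Discs large family, whose founding member sets basolateral polarity in flies. YWHAQ encodes 14-3-3 theta, an adaptor that binds phosphorylated proteins.

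All 6 genes were lower in the lesion than in the healthy mucosa of the same cat in each of the 3 cats, and in none of the 6 did the lesion and healthy values overlap. Lesions without overlap and below healthy mucosa were seen for 21.9% of the 13327 identifiers tested and for 78% of the 637 that carried a symbol and were lower in lesions. With limma, 5 of the 6 fell at an adjusted p under 0.05, TJP1 being the exception. The same call in the lower direction was made for 6.61% of all identifiers tested and for 43.2% of the 637. The same 5 genes were at least 2-fold lower in the lesion of every cat, against 6.81% of all identifiers and 40.8% of the 637. The median log2 difference of the 6 genes was -1.45, that of the 637 was -1.46 and that of all identifiers tested was -0.07. In size of change the 6 genes were thus close to the other named genes that were lower. That closeness was partly set in advance, since naming required a 2-fold difference. The copy of the supplementary list used here also lacked 328 rows, the strongest falls. The 637 therefore do not stand for all genes that were lower. Because the tissue was sampled in bulk, fewer epithelial cells and less RNA per cell cannot be told apart.

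**Figure D1:**
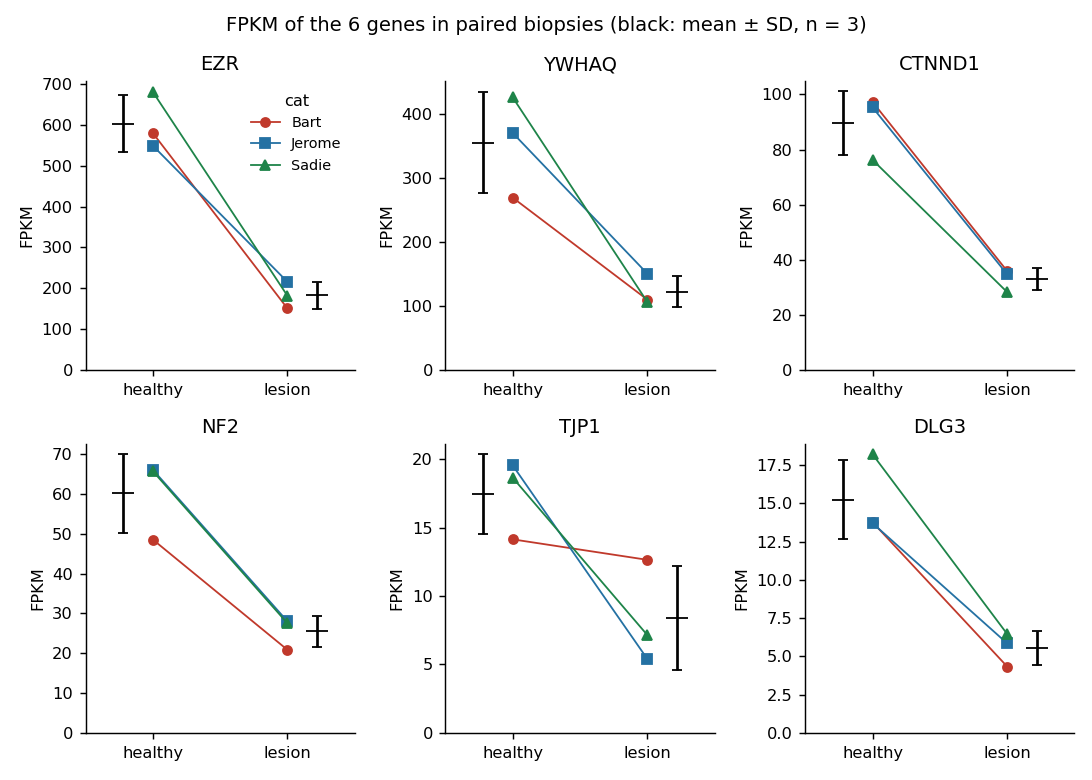
FPKM of each of the 6 genes (vertical axes, starting at 0) in healthy mucosa and FCGS lesion (horizontal axes), with 1 line per cat and the mean ± SD of 3 libraries in black. Lines of EZR, YWHAQ, CTNND1, NF2 and DLG3 descend in every cat, whereas TJP1 in Bart moves from 14.1 to 12.6 FPKM.

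EZR, whose product crosslinks the apical membrane to actin in microvilli and surface folds, was the most abundant of the 6 in both tissues. Healthy mucosa measured 579.9 FPKM in Bart, 549 FPKM in Jerome and 680.5 FPKM in Sadie, and the lesions measured 151, 216 and 182 FPKM in the same order. The lowest healthy library thus stood well above the highest lesion. The mean went from 603 ± 68.7 FPKM to 183 ± 32.5 FPKM (SD, n = 3 cats each), and the level moved from above at least 98.05% of tested identifiers in the healthy libraries to above 94.5% to 96.1% of them in the lesions. The log2 difference was -1.73 (SE 0.20, limma adjusted p = 0.019). By cat, Bart was at -1.94, Jerome at -1.35 and Sadie at -1.90.

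NF2, the merlin gene, is a relative of ezrin that restrains growth at cell contacts. Its healthy values were 48.6 (Bart), 66.1 (Jerome) and 65.7 FPKM (Sadie), against 20.9, 28.0 and 27.5 FPKM in the lesions. Bart had the lowest value in each tissue. The mean changed from 60.1 ± 10.0 FPKM to 25.5 ± 4.0 FPKM (SD, n = 3), a log2 difference of -1.24 (SE 0.22, limma adjusted p = 0.028).

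CTNND1 measured 97.3, 95.3 and 76.3 FPKM in healthy mucosa of Bart, Jerome and Sadie and 35.9, 34.8 and 28.3 FPKM in the lesions. Sadie was lowest in both tissues. The mean changed from 89.6 ± 11.6 FPKM to 33.0 ± 4.11 FPKM (SD, n = 3), a log2 difference of -1.44 (SE 0.19, limma adjusted p = 0.021). For CTNND1 and NF2 the change was nearly the same in the 3 cats. CTNND1 was at -1.44, -1.45 and -1.43 on the log2 scale in Bart, Jerome and Sadie (SD 0.013), and NF2 at -1.22, -1.24 and -1.26 (SD 0.018). Of the 13327 identifiers tested, 15 had an SD between cats as small as that of CTNND1 and 28 as small as that of NF2, each count including the gene itself. EZR, DLG3, YWHAQ and TJP1 had SDs of 0.33, 0.22, 0.41 and 0.87. This uniformity was noticed after the values were seen and was not tested.

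DLG3 was the least abundant of the 6 by its mean in both tissues. Healthy libraries of Bart, Jerome and Sadie held 13.8, 13.7 and 18.2 FPKM of it, and the lesions 4.34, 5.85 and 6.46 FPKM. The log2 difference was -1.46 (SE 0.26, limma adjusted p = 0.028), and healthy mucosa exceeded the lesion 3.17-fold in Bart, 2.34-fold in Jerome and 2.82-fold in Sadie. YWHAQ measured 269.6, 371 and 426 FPKM in healthy mucosa and 110.3, 151 and 107 FPKM in the lesions of the same cats. Its log2 difference of -1.53 (SE 0.25, limma adjusted p = 0.024) was largest in Sadie, at -1.997, against -1.29 in Bart and -1.30 in Jerome.

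TJP1 was little lower in the lesion of Bart and much lower in the other lesions. Its product ZO-1 anchors tight junction strands to actin and is also present at endothelial junctions. Healthy mucosa held 14.1 FPKM in Bart, 19.6 FPKM in Jerome and 18.7 FPKM in Sadie, and the lesions held 12.6, 5.41 and 7.16 FPKM. The lesion of Bart was therefore at 89.4% of its healthy partner, against 27.7% in Jerome and 38.4% in Sadie. The log2 difference of -1.13 (SE 0.36) had an unadjusted p of 0.020 and an adjusted p of 0.092 from limma, the latter being 0.11 with the block for cat. When the lesion of Bart was left out the log2 difference was -1.47 (limma adjusted p = 0.040), and with neither library of Bart it was -1.62 (adjusted p = 0.034). In the other 7 fits that left out a library or a cat it lay between -1.28 and -0.77 (adjusted p = 0.12 to 0.46), the smallest being without the cat Jerome. Among the 637 named genes that were lower in lesions, 38 (5.97%) were lower in Bart by no more than TJP1, or were higher.

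The lesion of Bart differed from the other lesions in its marker genes too. Of 13 endothelial markers, 8 had a symbol. Their summed level was 1912 FPKM in that lesion, 883 FPKM in that of Jerome and 814 FPKM in that of Sadie. The endothelial sum in healthy mucosa was 429 FPKM in Bart, 246 FPKM in Jerome and 189 FPKM in Sadie. Bart thus had the highest endothelial sum in both tissues. Of 24 skeletal muscle markers, 20 had a symbol and summed to 29.1 FPKM in the lesion of Bart, 5649.7 FPKM in that of Jerome and 4924 FPKM in that of Sadie. In healthy mucosa the muscle sum was 10.6 FPKM in Bart, 26.4 FPKM in Jerome and 2405 FPKM in Sadie. The part of endothelium or muscle in the TJP1 values was not tested. The other 5 genes were 2.33-fold to 3.84-fold lower in the lesion of Bart.

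Levels of the 6 genes followed the same order in lesions and in healthy mucosa: EZR, YWHAQ, CTNND1, NF2, TJP1 and DLG3. Neighbours in this order did not overlap between libraries of a tissue, except TJP1 and DLG3, whose ranges overlapped in both tissues. The order of the changes was not shared between cats. The largest difference was that of EZR in Bart, of TJP1 in Jerome and of YWHAQ in Sadie. CTNND1 minus NF2 was -0.22, -0.22 and -0.17 on the log2 scale in Bart, Jerome and Sadie (mean -0.20, SD 0.025), the steadiest of the 15 pairwise differences between changes. An exact sign-flip test over 3 cats cannot go below p = 0.25, which 4 of the 15 pairs reached, so this design leaves it unable to separate any pair. For a single gene compared as 3 against 3 libraries, the exact permutation test gave its smallest possible p of 0.1 for each of the 6.

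Marker genes of several cell types moved with the tissues. Of 24 leukocyte markers 22 had a symbol, all 22 were higher, 10 rose (21 with the cat as a block), and their sum was 1870.0 to 3014 FPKM in lesions and 289.6 to 780.4 FPKM in healthy mucosa. Of 9 plasma cell markers 4 had a symbol, 3 being higher in lesions and 1 lower, and 1 rose (3 with the block). The 4 summed to 283 to 1178 FPKM in lesions and 674 to 729.5 FPKM in healthy mucosa. This sum mixes genes of both directions and overlapped between the tissues, so it does not give the direction of the 3. Of the 8 endothelial markers with a symbol 4 rose (8 with the block). Such calls in the higher direction were made for 5.31% of all identifiers tested and 31.5% of the 1292 that carried a symbol and were higher in lesions (12.2% and 68.9% with the block). Of 30 epithelial markers 10 had a symbol, 6 being lower in lesions and 4 higher, and 3 fell (2 with the block). Among the 3 was COL17A1, the hemidesmosomal collagen of basal keratinocytes (log2 difference -2.25, limma adjusted p = 0.038). Calls in the lower direction were made for 6.61% of all identifiers tested and 43.2% of the 637 (11.1% and 66.7% with the block). The epithelial sum, 71.0 to 2789.9 FPKM in lesions and 303 to 2763 FPKM in healthy mucosa, overlapped between the tissues. It depended heavily on KRT4, a keratin of mucosal epithelium, at 8.99, 2534 and 569 FPKM in the lesions of Bart, Jerome and Sadie. KRT4 stood at 2089 FPKM in the healthy mucosa of Bart and was listed at 0 in the healthy libraries of Jerome and Sadie. COL17A1 and the laminin gene LAMA3 did not overlap between the tissues, whereas the laminin gene LAMB3 did. Across the healthy libraries COL17A1 differed 2.27-fold, the laminin genes LAMB3 and LAMA3 2.05-fold and 1.33-fold, and the 6 genes 1.24-fold (EZR) to 1.58-fold (YWHAQ). The part of these cell types in the lower levels of the 6 genes was not tested.

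**Figure D2:**
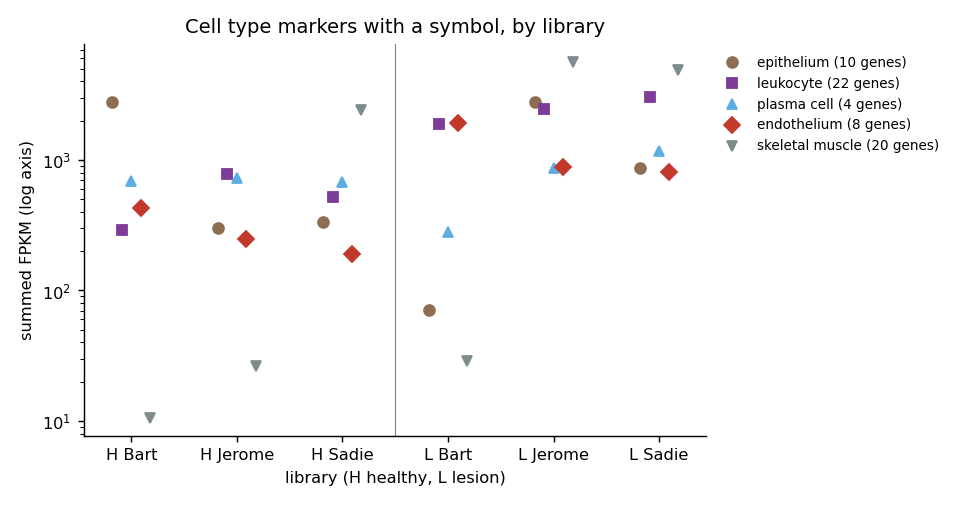
Summed FPKM (vertical axis, log scale) of the named markers of 5 cell types in each of the 6 libraries (horizontal axis, healthy left and lesions right of the line), with 1 point per marker list. The lesion of Bart has the highest endothelial sum, 1912 FPKM, and the lowest epithelial sum, 71.0 FPKM, while muscle reaches 2405 FPKM or more in the lesions of Jerome and Sadie and the healthy mucosa of Sadie.

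Relatives of the 6 genes were compared next, taking family members with a symbol. Moesin, encoded by MSN, is the ezrin relative that predominates in leukocytes and endothelium. In Bart, Jerome and Sadie, MSN was at 114, 58.1 and 48.1 FPKM in healthy tissue and at 243, 149 and 138 FPKM in the lesions. No healthy value reached the lowest lesion, yet the log2 difference of 1.33 did not pass limma (adjusted p = 0.077, and 0.022 with the cat as a block). The ratio of EZR to MSN within a library, which library scaling cannot change, was 5.11, 9.46 and 14.1 in healthy mucosa and 0.62, 1.45 and 1.32 in lesions. EZR thus stood above MSN in every healthy library, and the lesion of Bart held more MSN than EZR. SLK and STK10, related kinases among those known to phosphorylate ezrin, radixin and moesin, both passed the test, in opposite directions. SLK had a log2 difference of -1.84 (SE 0.23, limma adjusted p = 0.020), and STK10, a kinase abundant in lymphocytes, rose by 1.84 (SE 0.23, adjusted p = 0.020).

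In the DLG family, DLG4, which encodes PSD-95, a scaffold best known from synapses, measured 4.24, 4.05 and 3.24 FPKM in healthy mucosa of Bart, Jerome and Sadie and 10.8, 7.38 and 6.46 FPKM in lesions (log2 difference 1.07, limma adjusted p = 0.064, and 0.036 with the cat as a block). The ratio of DLG3 to DLG4 was 3.25 to 5.61 in healthy mucosa and 0.40 to 1.00 in lesions. TJP3, which like TJP1 encodes a ZO scaffold, measured 16.7, 34.2 and 29.2 FPKM in healthy mucosa of Bart, Jerome and Sadie and 4.41, 17.5 and 13.96 FPKM in lesions (log2 difference -1.32, adjusted p = 0.18, and 0.037 with the block). In the lesion of Bart TJP1 exceeded TJP3 by 2.87-fold, whereas in the other 5 libraries their ratio was 0.31 to 0.84. PKP4, a relative of p120-catenin, had a log2 difference of -1.15 (adjusted p = 0.14, and 0.030 with the block).

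**Figure D3:**
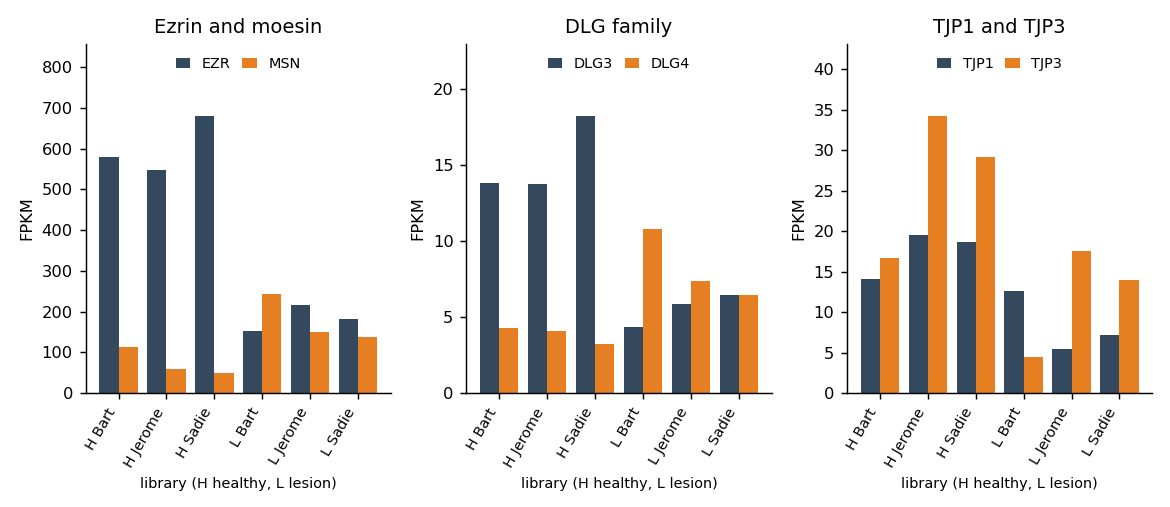
FPKM (vertical axes, starting at 0) of ezrin and moesin, of DLG3 and DLG4, and of TJP1 and TJP3 in each library (horizontal axes), 1 bar per gene and library. EZR exceeds MSN in every healthy library and lies between 151 and 216 FPKM in lesions, where MSN is at 138 to 243 FPKM.

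The wider machinery was taken from 7 gene lists covering tight junctions, adherens junctions, desmosomes, the cortex, polarity complexes, the Hippo pathway and 14-3-3 proteins, 201 genes in all, of which 42 had a symbol. Of these 42, 9 fell and 3 rose (17 and 16 with the cat as a block), where all identifiers tested gave 6.61% lower and 5.31% higher calls (11.1% and 12.2% with the block). The 9 were 36% of the 25 list genes that were lower, against 43.2% of all named genes that were lower, and the 3 were 17.6% of the 17 that were higher, against 31.5%. With the block these shares were 68% against 66.7% and 94.1% against 68.9%. A symbol required a 2-fold difference in these same libraries, so the counts lend no independent weight to a direction. The copy of the supplementary list used here was cut short, so 328 rows, the strongest falls, were not read and gave no symbol. The median log2 difference of the 42 was -1.14. Leaving out the 6 genes, 36 remained, of which 19 were lower (4 past limma) and 17 higher (3 past limma).

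At adherens junctions 9 of 27 genes had a symbol, 2 fell and none rose (4 and 3 with the block). MLLT4, which encodes afadin, the partner of nectins and ZO-1, fell from 87.8, 104 and 97.9 FPKM in Bart, Jerome and Sadie to 23.4, 22.5 and 15.4 FPKM (log2 difference -2.26, limma adjusted p = 0.019). PLEKHA7, which binds p120-catenin at these junctions, had a log2 difference of -1.48 (adjusted p = 0.058, and 0.024 with the block). SHROOM3, a regulator of apical constriction, was at -1.49 (adjusted p = 0.067). The 3 genes higher with the block were the cadherin genes CDH5, CDH11 and CDH13, named after their values were seen. Their log2 differences were 2.32, 1.81 and 1.23 (limma adjusted p = 0.073, 0.21 and 0.25, blocked 0.022, 0.022 and 0.024). E-cadherin and the desmosomal genes had no symbol and were not analysed here. Whether they were among the 328 rows not read is unknown.

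At tight junctions 8 of 42 genes had a symbol and none passed limma, with 3 lower and 2 higher with the block and 7 at an unadjusted p under 0.05. LSR, the receptor that marks contacts of 3 cells, was at a log2 difference of -2.04 (adjusted p = 0.060, and 0.041 with the block). The scaffold MAGI1 had a log2 difference of -1.90 (limma adjusted p = 0.10, blocked 0.042) and its relative MAGI3 one of -1.06 (0.078). Of 40 polarity genes 7 had a symbol and 2 fell, DLG3 and MPP7 (4 lower and 1 higher with the block). MPP7, a membrane-associated guanylate kinase that forms a complex with DLG and LIN7 proteins, fell from 19.6, 6.75 and 12.6 FPKM to 2.95, 3.27 and 3.12 FPKM (log2 difference -1.93, limma adjusted p = 0.038). CELSR1, a cadherin of planar polarity, measured 36.2 and 1.33 FPKM in healthy mucosa and lesion of Bart, 18.6 and 9.26 FPKM in those of Jerome and 12.7 and 5.84 FPKM in those of Sadie (log2 difference -2.30, adjusted p = 0.11).

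Of 40 cortex genes 13 had a symbol, and 4 fell and 3 rose (4 and 8 with the block). Beside EZR, NF2 and SLK, the gene that fell was EPB41L4A, a protein 4.1 relative (log2 difference -2.23, limma adjusted p = 0.028). Beside STK10, those that rose were MYO1F, a myosin of leukocytes (log2 difference 2.01, adjusted p = 0.027), and EPB41L3, another protein 4.1 relative (1.78, adjusted p = 0.028). EPB41L4A and EPB41L3 were named after their values were seen. Of 31 Hippo genes 4 had a symbol and none passed limma, with 1 lower and 2 higher with the block and 3 at an unadjusted p under 0.05. NF2, which acts on Hippo signaling and fell, was counted among the cortex genes and not here. TEAD4, a transcription factor bound by YAP, was at a log2 difference of 1.61 (adjusted p = 0.083, blocked 0.024). DCHS1, a giant cadherin, was at 1.32 (0.17, blocked 0.029) and AMOTL1, a member of the angiomotin family, at -1.16 (0.16, blocked 0.024). AJUBA, a LIM protein, was at -1.66 (0.075, blocked 0.070). YWHAQ was the only one of 7 genes for 14-3-3 proteins with a symbol.

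**Figure D4:**
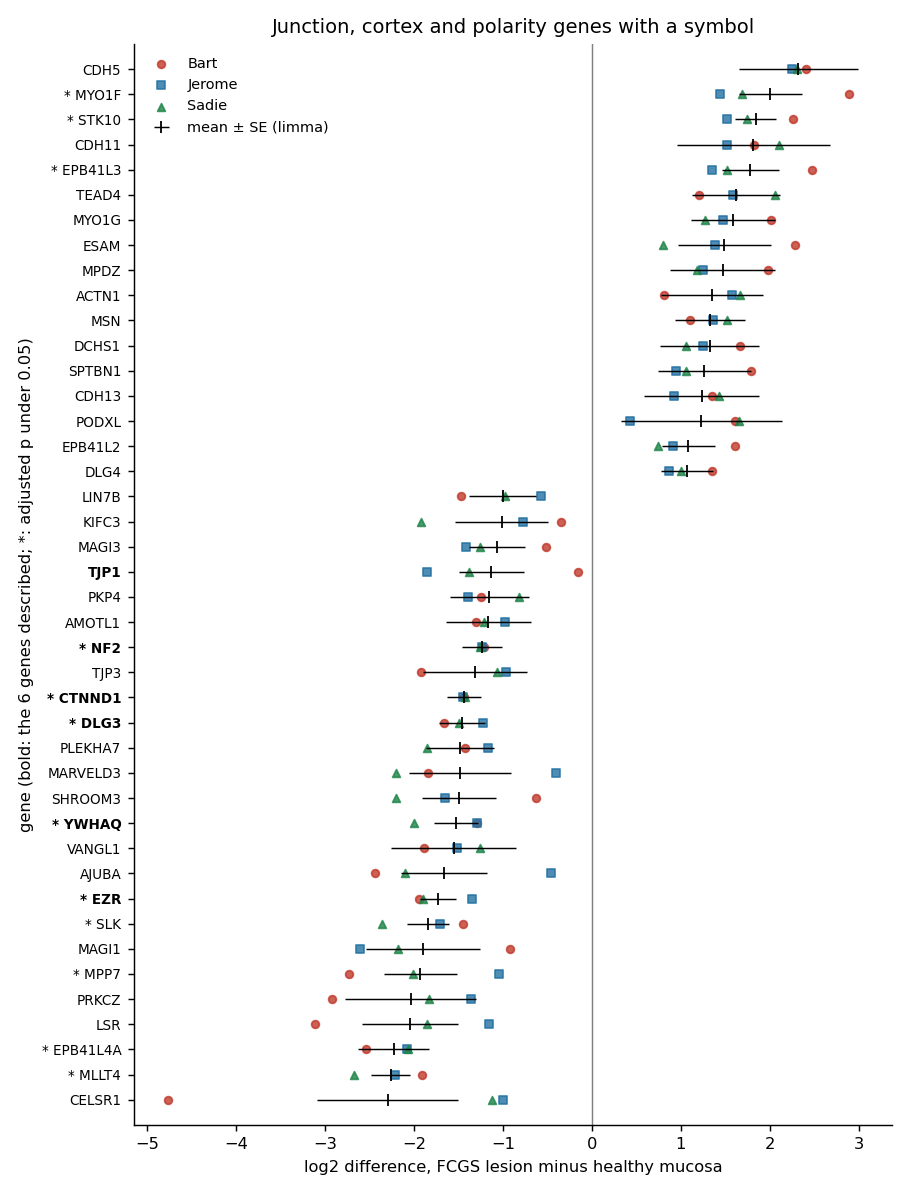
The horizontal axis gives log2 of lesion over healthy FPKM and the vertical axis the 42 named genes of the 7 lists. Each cat has 1 point. Black marks the mean ± standard error from limma without the cat as a block, which does not measure the spread of the points. Asterisks mark an adjusted p under 0.05 in that fit, and the 6 genes are in bold. The points of CTNND1 and NF2 nearly coincide, whereas TJP1 in Bart lies at -0.16 and in Jerome at -1.85.

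The 6 genes varied together across libraries to different degrees. Over the 6 libraries the log2 values of EZR, CTNND1, NF2, DLG3 and YWHAQ correlated pairwise at Pearson r = 0.88 to 0.98, and TJP1 with each of them at 0.70 to 0.82. These values are a description, since the libraries fall into 2 tissues and both biopsies of a cat share the animal. Among 1928 other named genes, the closest to EZR were ATP10D and NADSYN1 (both r = 0.997) and PLCB3 (0.995). CTNND1 was closest to CACHD1 (0.998), EPHA4 (0.997) and KDM1B (0.995), and NF2 to BPHL (0.995), FAM219B (0.994) and EFTUD1 (0.993). DLG3 was closest to PLP2 (0.996), MINK1 (0.993) and EI24 (0.992), and YWHAQ to PLB1 (0.997), KCTD5 (0.996) and H2AFY (0.996). For TJP1 the nearest were DLEC1 (0.970), TTC21B (0.953) and ABHD6 (0.945). DLEC1 measured 3.898 FPKM in the lesion of Bart, against 1.89 and 2.38 FPKM in the other lesions and 4.78 to 7.47 FPKM in healthy mucosa. In Bart, TTC21B was at 3.72 FPKM in healthy mucosa and 2.40 FPKM in the lesion, and ABHD6 at 11.5 and 6.54 FPKM. These 3 genes were picked for their likeness to TJP1, so a shared pattern in Bart follows from the choice.

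The calls of single genes rested on few libraries. With the cat as a block the same 5 genes passed limma, at adjusted p-values of 0.022 to 0.024, where 66.7% of the 637 named lower genes passed. In the fits that dropped the healthy library of Jerome, 1 of the libraries of Sadie, the cat Jerome or the cat Sadie, limma called 0 of the 6, and 5 of the 6 had an unadjusted p under 0.05 in each of these fits. Over all identifiers those fits called from 0 to 132, so calls were lost across the whole table.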

How the data were processed

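RNA was measured in 6 libraries, 1 FCGS lesion and 1 healthy mucosa from each of 3 cats, grouped by the phenotype in the labels. The authors deposited FPKM values for 21529 Ensembl identifiers per library, all with status OK. Tools listed in the processing notes are bcl2fastq, HISAT, Cufflinks and Cuffnorm. Genome build, annotation and library scaling: not given in the sources used here. Labels and paper differ on read length and layout.

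Symbols came from 1981 rows of the supplementary gene list, which give symbols with tissue values. A further 328 rows were missing from the copy used, which was cut short. At 5 significant digits every row read had 1 matching identifier, and 0 rows matched with the tissues swapped. Rows with under 3 values above the floor (47) and symbols turned into dates (5) were dropped, leaving 1929. The reference gene table matched 0 identifiers, and no sequences were used.

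Before taking log2, values under 1 FPKM were set to 1, so changes of weakly expressed genes are understated. Identifiers reaching 1 FPKM in 3 or more libraries (13327) entered a two-sided limma test (limma 3.58.1, R 4.3.3). The model held tissue alone, with a mean-variance trend, and p-values were adjusted over all identifiers tested by Benjamini-Hochberg. The fit was tested on simulated data. Other steps used Python 3.11.15, pandas 2.3.3, numpy 2.4.6, scipy 1.17.1 and matplotlib 3.10.9.

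The labels give both biopsies of a pair the same animal. Deviations from the tissue means correlated within a cat at 0.49 (Bart), 0.20 (Jerome) and 0.41 (Sadie), the lesion of Jerome correlating more with the healthy library of Sadie (0.27). Values with the cat as a block stand beside results whose call they change.

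The 6 genes and the gene lists were chosen with earlier results of these data known. Genes named are the 6, up to 4 genes with the smallest p from each of 7 lists, named relatives of the 6, and the 3 named genes most correlated with each. Epithelial markers given singly were picked outside these rules and do not stand for their whole list. A gene that these rules would name is not reported here and was left out of the lists. Alternatives were 2 other log offsets (0.1 and 1 FPKM), 2 other filters, 2 normalizations, no trend, the block, and leaving out each library or cat.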

Additional observations from a re-analysis of the deposited data

How the results depend on the processing

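The log2 differences of the 6 genes stayed negative in every alternative run. Of the 8 alternatives that kept all libraries, EZR and CTNND1 passed limma in 8, NF2, DLG3 and YWHAQ in 7, and TJP1 in 0. Without a filter on low values 2 of the 6 genes passed, and adjusted p-values of NF2, DLG3 and YWHAQ were 0.051, 0.053 and 0.051. That fit tested 18541 identifiers in place of 13327 and called 4 list genes lower and 1 higher, against 9 and 3. With the cat as a replicate block, 5 of the 6 passed, and list genes numbered 17 lower and 16 higher. Leaving out 1 library or cat, from 0 to 6 of the 6 genes passed, with 0 to 13 list genes lower and 0 to 10 higher. The 6 were reached without the lesion of Bart and without the cat Bart, 4 without the healthy library of Bart and 3 without the lesion of Jerome. The cause of these losses was not tested. The 328 rows of strongest falls missing from the copy of the supplementary list limit every list. Read depth of each library is unknown, the paper giving only an approximate number per sample.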
